A study of Mus musculus with 29 samples.

Results

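The Wnt pathway genes Wif1, Sfrp1, Sfrp2, Sfrp4, Frzb, Dkk2, Dkk3 and Axin2 were followed in RNA from the aortic arch of WT and Ercc1Δ/- mice. They are 8 of the 56748 genes in the count table, found there by their symbols and Ensembl identifiers. The first 7 encode secreted Wnt antagonists and Axin2 is a target gene of the pathway. The set was in part chosen by measured values, the genotype difference at 22 weeks on AL, in which Wif1 was among the genes with the strongest lower expression in Ercc1Δ/- mice. For that contrast the members are therefore described without a test. The comparisons at 6 weeks and on DR set other mice against each other and were tested, although their model fits also held the AL mice of 22 weeks, which share in the estimate of the spread and of the sex term. The exact permutation tests and a fit of the 20 other mice did not use them.

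The 6 groups were 5 WT and 5 Ercc1Δ/- mice fed ad libitum (AL) and killed at 6 weeks, 4 WT and 4 Ercc1Δ/- mice on AL at 22 weeks, and 5 WT and 5 Ercc1Δ/- mice under dietary restriction (DR) at 22 weeks, 28 mice in all. Ercc1Δ/- mice carry 1 null and 1 truncated allele of Ercc1, which encodes a subunit of a DNA repair endonuclease, in every cell of the body. All mice were F1 hybrids of C57BL6J and FVB, the WT mice were Ercc1+/+ littermates, and all were housed singly on the same pellets. The restriction began at 7 weeks and stood at 30% less food from 9 weeks on. Both sexes were present in every group. The tissue is a perfused piece of vessel, so that a level is an average over its cell types, and fewer cells of a type cannot be told apart from less RNA per cell.

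Wnt proteins are secreted ligands that bind Frizzled receptors and the LRP5 and LRP6 coreceptors, upon which β-catenin is spared from degradation and enters the nucleus. The secreted antagonists act outside the cell. Wif1 and the Sfrp family, to which Frzb belongs, bind the ligands themselves, whereas Dickkopf proteins such as Dkk2 occupy the coreceptors. Dkk3 is a divergent Dickkopf protein. Axin2 is a scaffold of the complex that degrades β-catenin and is itself transcribed in response to β-catenin, so its mRNA is in common use as a readout of the pathway. In the arterial wall the pathway is known for its part in the growth and mineralization of smooth muscle cells.

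Counts on genes totalled 921167 to 9616382 per mouse, and the lowest totals were in the Ercc1Δ/- mice on DR (921167 to 2572523). At 22 weeks every Ercc1Δ/- library held fewer counts than every WT library used of the same diet. The WT totals were 2660422 to 6124471 on DR. On AL they were 3903589 to 9616382, against 1294980 to 3855444 in Ercc1Δ/- mice. Depth and genotype thus go together at that age. A 29th library, labelled WT (mouse 003, 22 weeks, AL), held 400410 counts and was left out. Ercc1 itself, read as the check of the genotype labels, had 52.2 to 136 normalized counts in WT and 28.2 to 78.7 in Ercc1Δ/- mice, with the mean lower in the mutant in each pair of groups (two-sided exact permutation test, n = 5 per group, p = 0.0159 at 6 weeks and p = 0.00794 on DR). The left-out library labelled WT had 3 counts of Ercc1, or 30.0 normalized counts. This lay below every other WT mouse and within the range of the Ercc1Δ/- mice, but 3 counts cannot decide its genotype. Its Sfrp2 (1620) lay within the WT range on AL at 22 weeks (1377 to 1916, against 544 to 844 in Ercc1Δ/- mice). Its Frzb (540) lay between the ranges of WT (312 to 491) and Ercc1Δ/- mice (781 to 982) there. Its Wif1 (640) lay above both groups. All 10 smooth muscle markers and all 12 adventitial fibroblast markers were expressed as the tissue label implies, and none of 10 lymphocyte markers passed the filter on low counts (summed level 0 to 18.2 CPM per mouse, CPM being counts scaled to the library total). Ercc1Δ/- mouse 016 (DR) had the highest sums of macrophage (1301 CPM) and lymphocyte (18.2 CPM) markers of the 28 mice. Schwann cell markers summed to 274 to 354 CPM in 27 mice and to 1705 CPM in WT mouse 001 (6 weeks).

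The DNA just before the start of a transcript holds much of its basal promoter, and it is shown here for the members that changed with genotype, Wif1, Frzb and Sfrp2, and for Axin2 as the pathway's readout. Each sequence is the 250 bases before the start of the canonical GENCODE transcript on the GRCm39 assembly, on the strand of the gene, in lower case except for matches to the motifs named next. Wif1 (chr10:120869615-120869864) and Sfrp2 (chr3:83673231-83673480) lie on the + strand, as does Axin2 (chr11:108811388-108811637), and Frzb (chr2:80277970-80278219) lies on the - strand. The windows of Frzb and Axin2 lie inside the annotated span of the gene (chr2:80242313-80278304 and chr11:108811169-108841609), whose outermost start is farther upstream.
Wif1: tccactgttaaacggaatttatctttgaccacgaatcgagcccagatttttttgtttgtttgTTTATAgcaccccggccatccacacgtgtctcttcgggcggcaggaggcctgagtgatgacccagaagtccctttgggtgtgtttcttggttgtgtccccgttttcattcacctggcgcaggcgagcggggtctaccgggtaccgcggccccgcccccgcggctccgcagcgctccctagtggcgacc
Frzb: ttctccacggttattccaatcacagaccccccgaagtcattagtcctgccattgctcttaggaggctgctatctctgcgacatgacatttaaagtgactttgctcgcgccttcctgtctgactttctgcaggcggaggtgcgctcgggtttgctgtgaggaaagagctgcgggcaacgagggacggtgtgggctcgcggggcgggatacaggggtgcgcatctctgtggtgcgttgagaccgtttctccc
Sfrp2: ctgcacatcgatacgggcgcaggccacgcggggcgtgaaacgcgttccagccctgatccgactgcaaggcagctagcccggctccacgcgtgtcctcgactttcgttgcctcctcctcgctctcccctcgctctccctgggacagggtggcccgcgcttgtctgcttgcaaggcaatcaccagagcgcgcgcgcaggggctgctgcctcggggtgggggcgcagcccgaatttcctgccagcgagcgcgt
Axin2: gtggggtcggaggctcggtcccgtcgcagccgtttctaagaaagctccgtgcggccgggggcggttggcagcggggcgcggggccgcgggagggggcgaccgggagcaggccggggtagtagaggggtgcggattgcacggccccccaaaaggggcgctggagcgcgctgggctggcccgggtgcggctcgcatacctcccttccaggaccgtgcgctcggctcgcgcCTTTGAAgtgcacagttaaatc
Capitals mark, on either strand of the DNA, CTTTGAA or CTTTGAT, which are core sequences of the TCF and LEF factors that act with β-catenin, and TATAAA. These motifs were in 4.84%, 2.86% and 11.9% of the same windows of 21770 protein-coding genes. Axin2 held 1 match to CTTTGAA, 16 to 22 bases before the start. Wif1 held 1 match to TATAAA on the opposite strand (printed as its reverse complement, TTTATA), 183 to 188 bases before the start. Frzb and Sfrp2 held none. The windows of Wif1 (58.4% G and C, 20 CpG), Frzb (57.6%, 17 CpG), Sfrp2 (68.8%, 28 CpG) and Axin2 (72% and 30 CpG) were all richer than the median window (53.2% and 8 CpG). A match, or its absence, in this window is a description of letters and says nothing about the binding of a factor.

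The genes differ widely in abundance. In counts per kilobase of exon, scaled to library size as CPM is, the median over the 28 mice was 118 for Dkk3 (88.3 to 143), 104 for Sfrp2 (54.7 to 226), 34.7 for Frzb (17.2 to 74.0), 19.4 for Sfrp1 (11.3 to 31.0) and 19.4 for Wif1 (3.90 to 39.2). Sfrp4 followed with 8.90 (3.71 to 21.4), then Axin2 with 1.62 (0.771 to 2.84) and Dkk2 with 0.397 (0 to 1.54). Neighbours in this order overlapped in range over all mice except Sfrp4 and Axin2, between which the order was complete. Dkk2, with 0 to 20 counts per mouse, did not pass the filter on low counts, and the other 7 genes did.

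**Figure D1:**
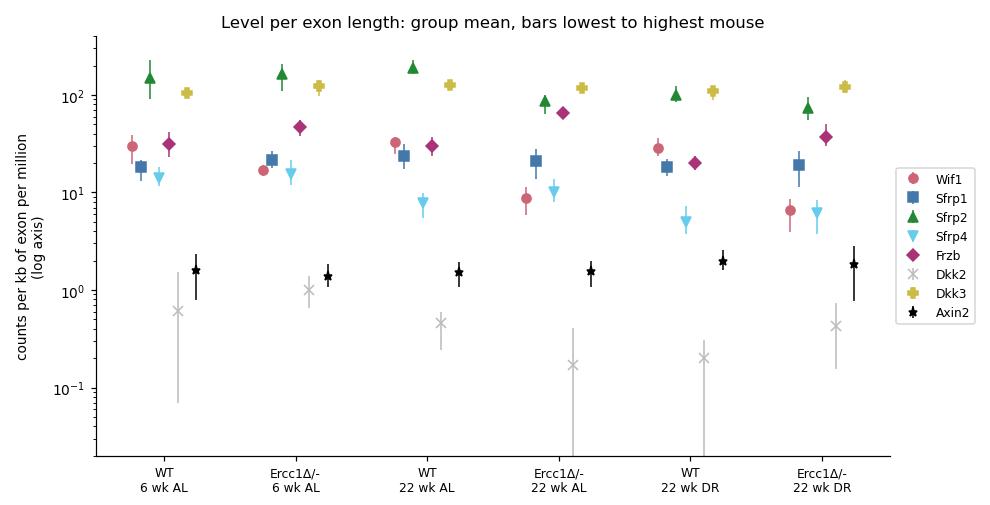
Levels of the 8 genes in the 6 groups (x axis), in counts per kilobase of exon, scaled to library size, on a log axis, as group means with bars from the lowest to the highest mouse; bars of Dkk2 that reach 0 are cut at the axis. Dkk3 and Sfrp2 lie at the top in every group, and Wif1 moves from 29.8 in WT mice at 6 weeks to 6.68 in Ercc1Δ/- mice on DR.

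The order within the antagonists differed between groups for Wif1. Among WT mice on AL at 22 weeks its level per length was 33.1 ± 5.69 (SD, n = 4), close to Frzb (29.7 ± 6.56) and above Sfrp1 (23.6 ± 6.35). In Ercc1Δ/- mice of the same age and diet it was 8.88 ± 2.64 (n = 4), while Frzb stood at 64.8 ± 7.26. Dkk3 made up 24.0% to 39.8% of the summed level of the 7 antagonists at 6 weeks and 38.9% to 52.8% in Ercc1Δ/- mice on DR.

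Wif1 (ENSMUSG00000020218, chr10:120869865-120936555, + strand) was lower in Ercc1Δ/- than in WT mice in each of the 3 settings. At 6 weeks the 5 WT mice had normalized counts of 181, 221, 283, 331 and 362, and the 5 Ercc1Δ/- mice had 138, 146, 162, 167 and 177. Normalized counts are counts scaled by TMM (trimmed mean of M values) to the mean library of 3683502. Every Ercc1Δ/- mouse thus lay below every WT mouse, although by little between the nearest values. The log2 fold change was -0.80 (standard error 0.16, 0.573 times the WT level), with an adjusted p of 0.0109 in edgeR's quasi-likelihood test over 12353 genes, and the exact permutation test of the means (two-sided, n = 5 against 5) gave p = 0.00794, the smallest it allows. Without WT mouse 001, the library with high Schwann cell markers, it was -0.71 (adjusted p = 0.0268). The call was lost when the library labelled WT 003 was added (log2 fold change -0.82, adjusted p = 0.0765, against 0.000278 to 0.0346 under the other alternatives).

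Under DR at 22 weeks the distance was wider. The WT mice had 216, 234, 247, 291 and 337 normalized counts of Wif1, and the Ercc1Δ/- mice had 36.0, 51.2, 61.4, 80.0 and 80.0, from 13 to 45 raw counts. The groups lay far apart, with every mutant mouse far under the lowest WT mouse. This gave a log2 fold change of -2.08 (standard error 0.20, 0.236 times the WT level, adjusted p = 8.19e-07), and the exact permutation p was again 0.00794, with all 5 mutant mice below all 5 WT mice. Without Ercc1Δ/- mouse 016, which had the lowest Wif1 (36.0) and high macrophage markers, the log2 fold change was -1.94 (adjusted p = 1.31e-06).

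In the contrast that singled the gene out, AL at 22 weeks, the 4 WT mice had 229.9, 313, 336 and 346 normalized counts of Wif1 and the 4 Ercc1Δ/- mice had 54.7, 68.5, 98.8 and 106. This corresponds to a log2 fold change of -1.82 (95% interval -2.22 to -1.42), between the values at 6 weeks and under DR. The left-out library labelled WT 003, whose Ercc1 count is too low to decide its genotype, had 64 counts of Wif1, or 640.0 normalized counts, above every other mouse.

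Whether the genotype difference of Wif1 had another size on DR at 22 weeks than at 6 weeks was tested in a fit of those 20 mice alone, none of which were in the contrast that singled it out. The difference between the log2 fold changes was -1.28 (standard error 0.22, 95% interval -1.73 to -0.83) with an adjusted p of 0.0473. Wif1 was the only gene of the 12353 called in this test, 0.0081% of genes, while 1022 genes had an unadjusted p under 0.05 and DESeq2 called 47. Age and diet change together here and cannot be told apart. The value stayed between -1.38 and -1.12 whichever mouse was left out, but the call was lost without any 1 of 14 of the 20 mice (adjusted p 0.0586 to 0.169; at 6 weeks WT 011, 019 and 024 and Ercc1Δ/- 002, 008, 015 and 027, and on DR WT 007, 017 and 028 and Ercc1Δ/- 006, 014, 016 and 029), with RLE size factors (0.0504), without the sex term (0.0783) and after thinning to equal depth (0.134).

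Changes of Wif1 with age or diet share the AL mice of 22 weeks with the contrast that singled it out, and they are given as values. Between 6 and 22 weeks on AL the log2 fold change was 0.12 (95% interval -0.20 to 0.45) in WT and -0.89 (-1.29 to -0.50) in Ercc1Δ/- mice. The 4 older Ercc1Δ/- mice (54.7 to 106 normalized counts) did not overlap with the 5 younger ones (138 to 177), whereas the WT mice of 6 and 22 weeks did. With diet it was -0.20 (-0.53 to 0.14) in WT and -0.40 (-0.90 to 0.11) in Ercc1Δ/- mice, and the level in Ercc1Δ/- mice on DR (36.0 to 80.0) stayed under that of every WT mouse.

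**Figure D2:**
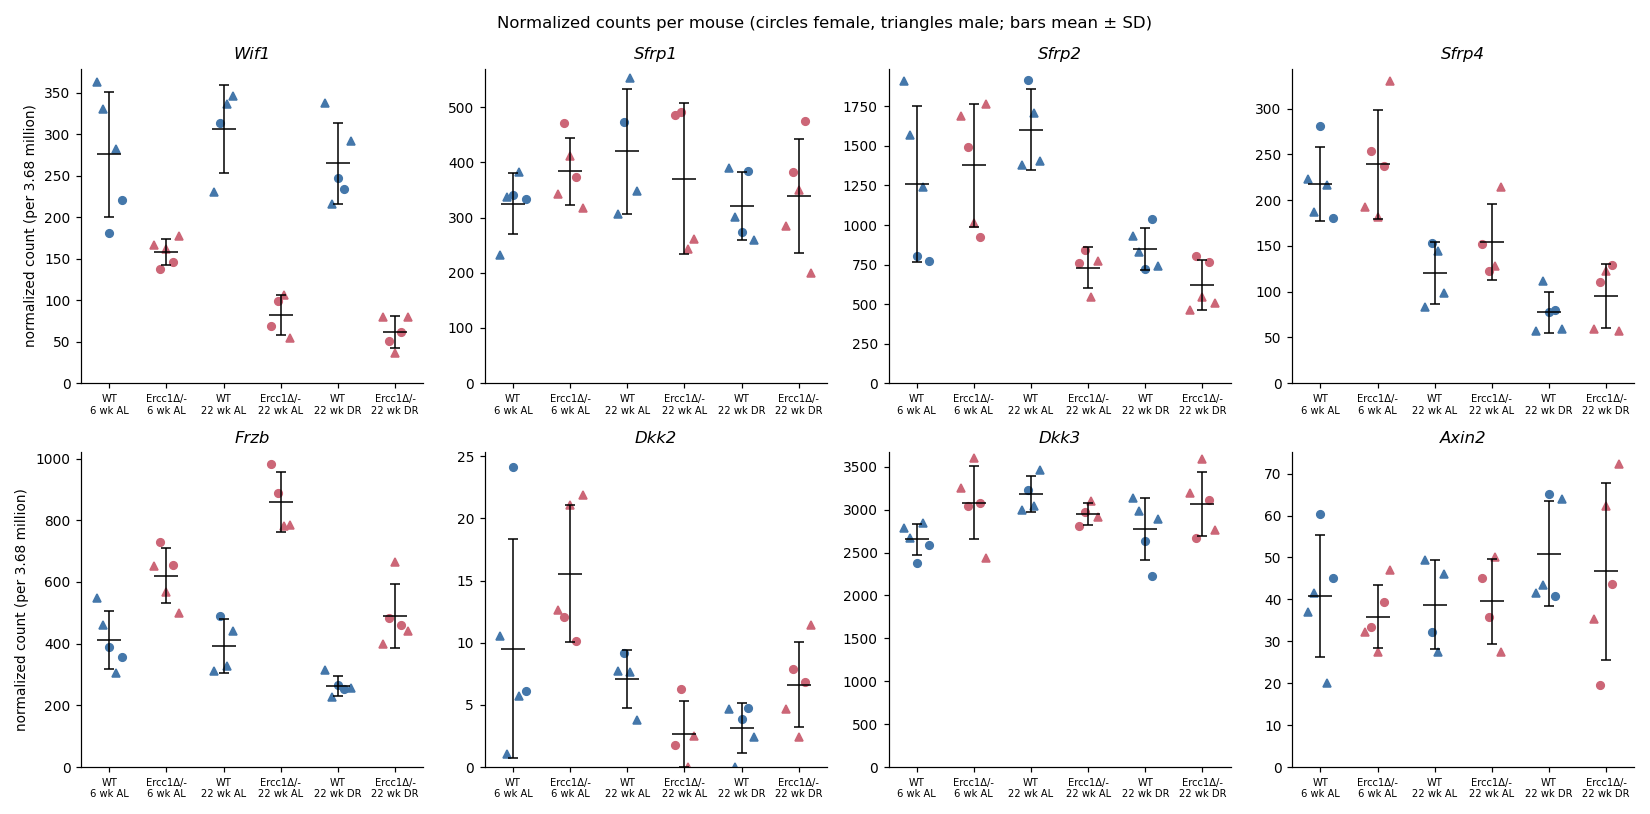
Normalized counts (y axis, linear, per 3683502 counts) of the 8 genes in each of the 28 mice by group, with circles for females, triangles for males, blue for WT and red for Ercc1Δ/-; bars are the mean ± SD of 4 or 5 mice. Every red point of Wif1 lies below the blue points of the same age and diet, and those of Frzb lie above except at 6 weeks, where 1 WT mouse (548) lies above the lowest Ercc1Δ/- mouse (501).

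Markers of smooth muscle moved with genotype in the same direction. Of 10 such markers, 3 were lower in Ercc1Δ/- than in WT mice at 6 weeks, beside 1.7% of all tested genes called. Among mice on DR 9 were lower in the mutant, among them Itga8, Cnn1, Smtn and Acta2, beside 13%. None was called higher in either setting. The summed level of the 10 ran from 34907 to 43989 CPM in WT and from 25080 to 34898 CPM in Ercc1Δ/- mice at 6 weeks. Under DR it ran from 35752 to 45771 CPM against 24878 to 27310 CPM. Per 1000 counts of these markers, Wif1 stood at 1.36 to 2.82 counts in WT and 1.24 to 1.91 in Ercc1Δ/- mice at 6 weeks, which overlapped. Under DR it stood at 1.28 to 2.48 against 0.358 to 0.830, and on AL at 22 weeks at 1.53 to 2.68 against 0.548 to 1.32, which did not. The part of the smooth muscle content in the lower Wif1 at 6 weeks was not tested.

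Over the 28 mice, the genes with the profile most like Wif1 in log2 CPM were Cdh13 (r = 0.91), Bcam (0.90), Pnck (0.89), Src (0.89) and Cnn3 (0.88). Much of this likeness lay between groups. With the group means removed, r was -0.13 for Cdh13, 0.10 for Bcam, 0.46 for Pnck, 0.32 for Src and 0.21 for Cnn3. These values describe 28 mice that share group, library and depth.

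**Figure D3:**
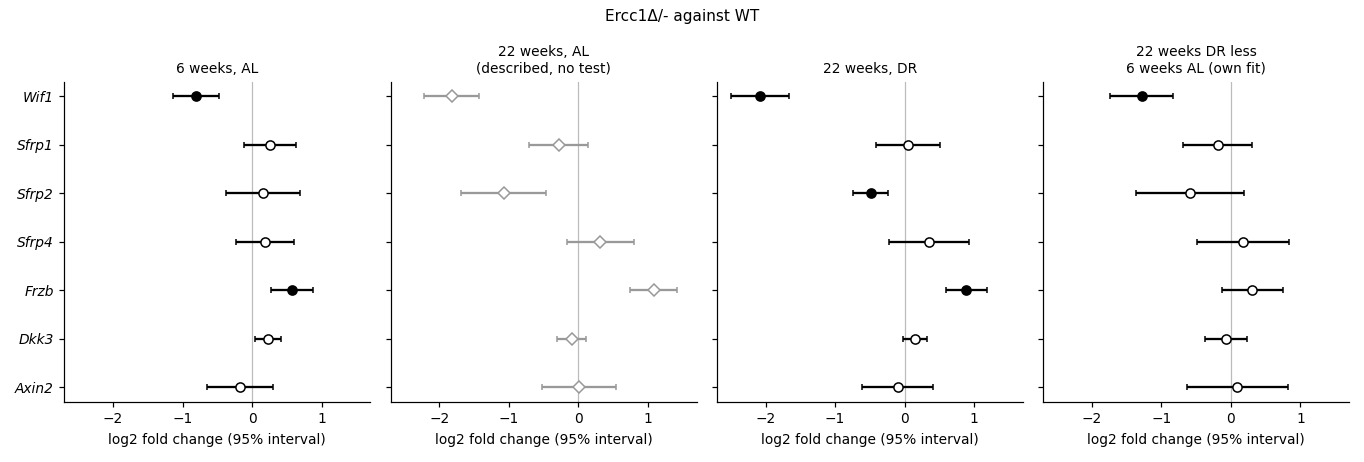
Log2 fold change of Ercc1Δ/- against WT (x axis, with 95% interval) for the 7 tested genes at 6 weeks on AL, at 22 weeks on AL (grey diamonds, described without a test) and at 22 weeks on DR, and in the last panel the difference between the DR and the 6-week values from a fit of those 20 mice; filled circles passed the test. Wif1 lies at -0.80, -1.82 and -2.08 and Frzb at 0.57, 1.08 and 0.89.

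Frzb (ENSMUSG00000027004, chr2:80242313-80278304, - strand), also called sFRP3, went the other way. Of the 7 tested members, 2 passed at 6 weeks, Wif1 lower and Frzb higher, beside 1.7% of all tested genes (210 of 12353, 70 higher and 140 lower). The WT mice of 6 weeks had 305, 356, 389.7, 460.5 and 548 normalized counts of Frzb and the Ercc1Δ/- mice had 501, 569, 650.5, 654 and 729.9. The groups overlapped through 1 WT mouse. On the log2 scale Frzb was higher by 0.57 (standard error 0.15, adjusted p = 0.0486), and the exact permutation test gave p = 0.0159 (two-sided, n = 5 against 5).

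This call of Frzb at 6 weeks lay at the threshold. Without WT mouse 001 the log2 fold change was 0.73 (adjusted p = 0.00554). It was lost with RLE size factors (log2 fold change 0.56, adjusted p just past the threshold), without the filter on low counts (0.0979), with the library labelled WT 003 added (0.0563), and without any 1 of 14 of the 18 AL-fed mice, with log2 fold changes of 0.47 to 0.62 and adjusted p of 0.0507 to 0.132. Those mice were WT 009, 011, 019 and 024 and Ercc1Δ/- 002, 008, 015, 023 and 027 at 6 weeks, and WT 020 and Ercc1Δ/- 004, 005, 013 and 026 at 22 weeks.

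Under DR, 3 of the 7 members passed between genotypes, Wif1 and Sfrp2 lower and Frzb higher, beside 13% of all tested genes (1605 of 12353, 737 higher and 868 lower). Frzb had 228, 252, 255, 265 and 315 normalized counts in WT mice and 398, 442, 459.6, 484 and 665 in Ercc1Δ/- mice, so that the groups did not overlap. The log2 fold change was 0.89 (standard error 0.14, 1.85 times the WT level, adjusted p = 0.000211), and the exact permutation p was 0.00794. On AL at 22 weeks the 4 WT mice had 312, 328, 442 and 491 and the 4 Ercc1Δ/- mice 781, 784, 890.0 and 982 normalized counts, a log2 fold change of 1.08 (95% interval 0.74 to 1.42) given without a test. In that contrast 12% of all tested genes passed (1487 of 12353).

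Frzb was lower on DR than on AL in both genotypes. In WT mice 2 of the 7 members passed for diet, Sfrp2 and Frzb, both lower on DR, beside 1.28% of all tested genes, and in Ercc1Δ/- mice 1 of 7, Frzb, beside 1.64%. For Frzb the log2 fold change was -0.60 (standard error 0.14, adjusted p = 0.0390) in WT and -0.79 (standard error 0.15, adjusted p = 0.00835) in Ercc1Δ/- mice. All 5 restricted Ercc1Δ/- mice (398 to 665) lay below all 4 AL-fed ones (781 to 982), and in WT mice the ranges overlapped by 1 mouse, 228 to 315 on DR against 312 to 491 on AL. The effect of diet on Frzb did not differ detectably between genotypes (difference of -0.20, 95% interval -0.62 to 0.23, adjusted p = 0.848).

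The diet call of Frzb in WT mice was lost without the sex term (adjusted p = 0.0678), with all 6 groups in one fit (0.0846), and without any 1 of 11 of the 18 mice of 22 weeks (0.0508 to 0.218), namely WT 018 and 025 and Ercc1Δ/- 005, 013 and 026 on AL, and WT 010, 017, 021 and 028 and Ercc1Δ/- 014 and 029 on DR. In Ercc1Δ/- mice it held under every alternative run (0.000187 to 0.0345).

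Macrophage markers moved with genotype and diet in the same direction as Frzb. Of 10 such markers, 2 were higher in Ercc1Δ/- than in WT mice at 6 weeks (Mpeg1 and Cd68), beside 1.7% of all tested genes called. Among mice on DR 7 were higher in the mutant (C1qb, Mpeg1, C1qa and Cd68 with the smallest p), beside 13%. Between diets in Ercc1Δ/- mice, 4 were lower on DR than on AL (C1qa, C1qb, Cd68 and Mrc1), beside 1.64%. The summed level of the 10 was 204 to 239 CPM in WT and 258 to 632 CPM in Ercc1Δ/- mice at 6 weeks. On DR it was 153 to 298 against 383 to 1301 CPM (median 415 in the mutant). In Ercc1Δ/- mice on AL at 22 weeks it was 589 to 1096 CPM. The profiles most like Frzb over the 28 mice were those of Rigi (r = 0.90), Psrc1 (0.87) and Ptprc (0.85), and Ptprc is on the macrophage list. Without the group means, r was 0.46 for Rigi, 0.27 for Psrc1 and 0.55 for Ptprc. The highest sum under DR was that of Ercc1Δ/- mouse 016, which also had the most Frzb of its group (665), and without it Frzb differed between genotypes by 0.73 (adjusted p = 0.000213). Per 1000 counts of the macrophage markers, Frzb stood at 390.5 to 691 counts in WT and 244 to 767 in Ercc1Δ/- mice at 6 weeks, at 236 to 489.7 against 220.5 to 360.4 on AL at 22 weeks, and at 229 to 454 against 139 to 317 under DR. The genotypes thus overlapped in each setting. Per 1000 counts of the 12 adventitial fibroblast markers Frzb stood at 9.43 to 15.2 against 10.6 to 22.9 at 6 weeks, which overlapped. It stood at 12.2 to 20.9 against 33.5 to 47.4 on AL at 22 weeks, described without a test, and at 11.1 to 16.3 against 18.8 to 40.0 under DR. Neither of these overlapped. On DR, 6 of 10 endothelial markers were higher in Ercc1Δ/- than in WT mice as well (Esam and Cldn5 with the smallest p), beside 13% of all tested genes called. Of 4 tested cartilage markers 1, Acan, was lower in the mutant at 6 weeks (-1.27, adjusted p = 0.0269) and on DR (-1.57, adjusted p = 0.00189). The median of the 4 was 0.26 and -0.49. Of 7 tested cardiac muscle markers none was called between genotypes at 6 weeks (median 1.33). On DR 1 was higher in the mutant, Tnnt2 (1.37, adjusted p = 0.00209), with a median of 1.22 over the 7. Their summed level was 87.7 to 133 CPM in WT against 85.4 to 215 CPM in Ercc1Δ/- mice at 6 weeks, and 144 to 247 against 261 to 621 CPM under DR. The part of macrophages, endothelium, cartilage or cardiac muscle in the levels of the members was not tested.

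Sfrp2 (ENSMUSG00000027996, chr3:83673481-83681623, + strand), another ligand-binding antagonist, was lower on DR in WT mice and lower in Ercc1Δ/- mice on DR. The annotation holds antisense RNAs within the gene, and the strand setting of the counting is not given in the sources used here, so reads from them cannot be told apart. In WT mice of 22 weeks the normalized counts were 1377, 1407, 1707 and 1916 on AL and 721, 738, 829, 929.5 and 1037 on DR. No restricted WT mouse reached an AL-fed one. These AL-fed mice are also in the contrast that had a part in choosing the set. The log2 fold change was -0.95 (standard error 0.12, 0.516 times the AL level, adjusted p = 0.000203), a call that only the fit of all 6 groups together lost (log2 fold change -0.91, adjusted p = 0.105).

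In Ercc1Δ/- mice Sfrp2 was low on both diets, with AL values of 544, 758, 774 and 844 normalized counts and DR values of 464, 507, 547, 769 and 807. Diet gave a log2 fold change of -0.22 there (95% interval -0.49 to 0.06, adjusted p = 0.463). The difference between the diet effects of the genotypes was 0.74 (standard error 0.18), with an unadjusted p of 0.000524 and an adjusted p of 0.155, so that it was not called, and the other 6 members were not called either beside 0.0971% of all tested genes (12 of 12353). Without the filter on low counts it passed (adjusted p = 0.0480).

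Between genotypes, Sfrp2 did not differ detectably at 6 weeks. The WT mice had 772, 804, 1242, 1571 and 1913 and the Ercc1Δ/- mice 923, 1014, 1491, 1692 and 1766 normalized counts, both groups with a wide spread (log2 fold change 0.15, 95% interval -0.38 to 0.69, adjusted p = 0.864). Under DR it was called lower in the mutant (log2 fold change -0.49, standard error 0.12, adjusted p = 0.00977), with overlapping groups and an exact permutation p of 0.0635 (two-sided, n = 5 against 5). The call was kept without any 1 of the 18 mice (adjusted p 0.000780 to 0.0423) but was lost without the sex term (log2 fold change -0.46, adjusted p = 0.0718) and in the fit of all 6 groups (-0.46, 0.249). On AL at 22 weeks the ranges of the genotypes lay apart, 1377 to 1916 against 544 to 844, with a log2 fold change of -1.07 (95% interval -1.68 to -0.46) described without a test.

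Fibroblast markers moved in both directions. Of 12 adventitial fibroblast markers, 1 (Ly6a) was higher in Ercc1Δ/- than in WT mice at 6 weeks and none lower, beside 1.7% of all tested genes called. Between genotypes on DR 3 were higher in the mutant (Ly6a, Cd34 and Pdgfra) and 3 lower (Col1a1, Pi16 and Serpinf1), beside 13%. Between diets in WT mice 1 was higher on DR (Dpep1) and 2 lower (Ly6a and Col1a1), beside 1.28%. Per 1000 counts of the 12 markers, Sfrp2 stood at 58.4 to 72.0 counts in WT mice on AL at 22 weeks and at 33.1 to 48.1 in the restricted ones. Between genotypes under DR, 33.1 to 48.1 in WT and 21.9 to 34.7 in Ercc1Δ/- mice overlapped. On AL in WT mice the markers summed to 7685 to 9781 CPM at 6 weeks and 5739 to 7292 CPM at 22 weeks. In Ercc1Δ/- mice they summed to 8652 to 12883 and 4890 to 6625 CPM. Per 1000 marker counts, Sfrp2 in Ercc1Δ/- mice stood at 27.8 to 46.8 at 6 weeks and 23.3 to 43.0 at 22 weeks, which overlapped. In WT mice it stood at 27.1 to 53.1 and 58.4 to 72.0, which did not. The part of fibroblasts in the levels of the members was not tested. The profiles most like Sfrp2 over the 28 mice were those of Syt15 (r = 0.86), Casq1 (0.83) and Tnxb (0.83), which encodes a tenascin of connective tissue. For these, r was 0.57, 0.55 and 0.56 with the group means removed.

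**Figure D4:**
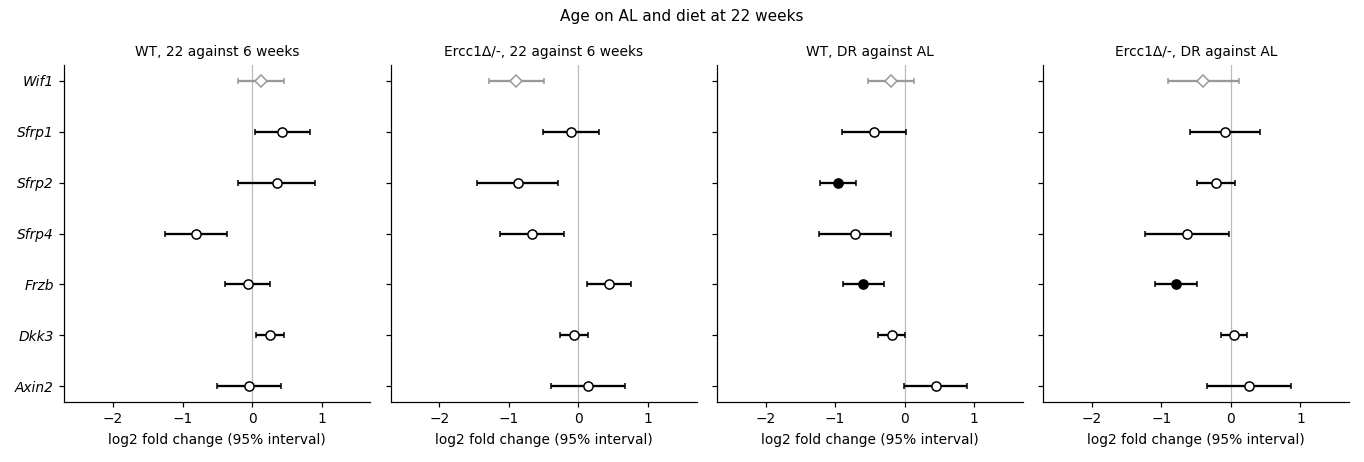
Log2 fold change (x axis, with 95% interval) of the 7 tested genes for age on AL (22 against 6 weeks) and for diet at 22 weeks (DR against AL), in each genotype; filled circles passed the test and Wif1 is described without one (grey diamonds). Sfrp2 and Frzb lie at -0.95 and -0.60 for diet in WT mice, and Frzb at -0.79 in Ercc1Δ/- mice.

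With age on AL, none of the 7 members passed in WT mice, beside 0.235% of all tested genes (29 of 12353), where 3 members (Sfrp4, Dkk3 and Sfrp1) had an unadjusted p under 0.05, as did 1067 of the 12353 genes. In Ercc1Δ/- mice Wif1 was the 1 member beyond the thresholds, beside 4.69% of all tested genes, and as the gene that chose these samples it is given without a test. Sfrp2 had a log2 fold change with age of 0.35 (adjusted p = 0.797) in WT and -0.87 (adjusted p = 0.0895) in Ercc1Δ/- mice, and Frzb of -0.06 (adjusted p = 0.963) and 0.45 (adjusted p = 0.104). The genotype by age test called 0 of the members beside 0.842% of all tested genes (104 of 12353), with -1.02 for Wif1 (95% interval -1.53 to -0.50) and, among the other members, the smallest adjusted p for Sfrp2 (-1.22, adjusted p = 0.186). DESeq2 called Sfrp2 in that test (-1.24, adjusted p = 0.0274). All of these comparisons share the AL-fed mice of 22 weeks.

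Sfrp4, another ligand-binding member of the Sfrp family, was at its highest at 6 weeks. Its normalized counts were 180.1 to 281 in WT and 181 to 330.1 in Ercc1Δ/- mice at 6 weeks, 83.4 to 153 and 123 to 214 on AL at 22 weeks, and 57.5 to 112 and 57.2 to 129.6 on DR. The AL-fed WT mice of 22 weeks all lay below those of 6 weeks. With age, the log2 fold change was -0.80 (adjusted p = 0.148) in WT and -0.67 (adjusted p = 0.0976) in Ercc1Δ/- mice, neither of which was called, while DESeq2 called the first (-0.82, adjusted p = 0.0247). The second was called after thinning to the lowest total (-0.75, adjusted p = 0.0228) and without Ercc1Δ/- mouse 026 (-0.88, adjusted p = 0.0264). The summed adventitial fibroblast markers were lower at 22 weeks as well, and their part was not tested. Between genotypes it was 0.18 (95% interval -0.24 to 0.60) at 6 weeks and 0.35 (-0.23 to 0.93) under DR. The closest profiles were those of Ctsk (r = 0.91), which encodes the collagen-cleaving cathepsin K, Rcn1 (0.83) and Igf1 (0.82). Removing the group means left r at 0.70 for Ctsk, 0.29 for Rcn1 and 0.37 for Igf1.

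Sfrp1 and Dkk3 gave no call in any comparison, and Dkk2 was too low to be tested in the fits. Sfrp1 ran from 200.1 to 552 normalized counts over the 28 mice, with genotype differences of 0.25 (95% interval -0.12 to 0.63) at 6 weeks and 0.04 (-0.42 to 0.51) under DR on the log2 scale. Its profile was most like that of Gja5 (r = 0.74), a connexin of arterial endothelium, of Stab1 (0.73) and of Phex (0.66). Dkk3 was the steadiest member, between 2223 and 3597 normalized counts in all mice, and its 95% intervals for genotype, 0.04 to 0.41 at 6 weeks and -0.03 to 0.33 under DR, are narrow beside those of the other members. Dkk2 had group means of 2.65 to 15.6 normalized counts, with 0 counts in 1 Ercc1Δ/- mouse on AL at 22 weeks and in 1 WT mouse on DR, and at this depth a difference in it was not detectable between genotypes at 6 weeks or under DR (exact permutation p = 0.230 and p = 0.0952, two-sided, n = 5 against 5).

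Axin2, the target gene, passed the test in none of the comparisons. It had 20.0 to 60.3 normalized counts in WT and 27.5 to 46.9 in Ercc1Δ/- mice at 6 weeks, 27.3 to 49.5 and 27.4 to 50.2 on AL at 22 weeks, and 40.8 to 65.1 and 19.7 to 72.4 on DR. All groups overlapped. Between genotypes the log2 fold change was -0.18 (95% interval -0.65 to 0.30, adjusted p = 0.820) at 6 weeks, 0.01 (-0.52 to 0.53) on AL at 22 weeks and -0.10 (-0.61 to 0.41, adjusted p = 0.851) under DR. With 5 to 121 raw counts per mouse these intervals are wide, and a difference within them was not detectable at this depth. An antisense RNA overlaps the gene in the annotation, as in Frzb and Sfrp2.

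None of the 7 tested members was called between the sexes over the 28 mice, where 24 of 12353 genes were (0.194%). The 2 members with the smallest unadjusted p were Sfrp1, lower in males (log2 fold change -0.35, adjusted p = 0.355) with a lower male mean in 6 of 6 groups, and Wif1, higher in males (0.24, adjusted p = 0.583) with a lower male mean in 2 of 6 groups. Within groups, across the 28 mice with group means removed, no pair of the 7 members was correlated at an adjusted p of 0.05 or less (21 pairs, permutation within groups, 0 pairs). The strongest pair was Wif1 with Sfrp4 (Pearson's r = -0.53, permutation p = 0.0140, adjusted 0.293; Spearman's rho = -0.49, permutation p = 0.0220, adjusted 0.389), and r was -0.44 without the 2 mice farthest from the median of Wif1.

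The other genes of the Wnt pathway were read from 6 lists with 98 genes in all, of which 65 were tested. At 6 weeks 1 of these 65 was lower in Ercc1Δ/- than in WT mice and none higher, where 1.7% of all tested genes were called. Among mice on DR 11 were lower and 2 higher in the mutant, where 13% were called. The median genotype change of the 65 was -0.04 and -0.10 on the log2 scale, against 0.02 and 0.00 for all tested genes. On AL at 22 weeks, where 12% were called, 10 were lower and 2 higher in the mutant. Diet changed 2 of the 65 in WT mice (Ccn5 and Ccnd1, both lower) and 2 in Ercc1Δ/- mice (Tle1 higher and Igfbp4 lower).

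Among 6 other tested extracellular inhibitors, Sost was the gene called at 6 weeks. Sost encodes sclerostin, which binds LRP5 and LRP6 and is made by bone cells and by smooth muscle of the aorta. It had 3158 ± 609 normalized counts in WT and 1775 ± 345 in Ercc1Δ/- mice (SD, n = 5 each) at 6 weeks (log2 fold change -0.82, standard error 0.16, adjusted p = 0.0122). Under DR it had 4271 ± 782 against 1654 ± 168 (-1.35, standard error 0.14, adjusted p = 3.24e-06), with 3280.0 to 5181 in WT and 1518 to 1945 in Ercc1Δ/- mice. Igfbp4, a secreted binding protein that also inhibits Wnt signalling, was lower in Ercc1Δ/- than in WT mice on DR as well (-0.49, adjusted p = 0.000461). Sost and Wif1 were thus both lower in Ercc1Δ/- mice at 6 weeks and on DR, while the difference of the Sost changes between these settings was not called (-0.53, adjusted p = 0.454).

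On the receiving side, 3 of 13 receptors and coreceptors were lower in Ercc1Δ/- than in WT mice on DR, beside 13% of all tested genes called. The 3 were Fzd2 (-0.93, adjusted p = 3.14e-05), Fzd1 (-0.59, 0.000137) and Fzd7 (-0.36, 0.0265). Between genotypes at 6 weeks none were called, and Fzd2 had -0.06 (adjusted p = 0.877). Lgr6 is a receptor of the R-spondins that amplify Wnt signals. It was lower in the mutant by 0.41 on the log2 scale on DR (adjusted p = 0.0112), as 1 of 5 genes of its list. None of 7 tested ligands was called between genotypes at 6 weeks or on DR. Of 26 genes for secretion and intracellular signalling 3 were lower in the mutant on DR and none higher. They were Bcl9l (-0.42), Tcf7l1 (-0.45) and Pygo2 (-0.35), which all act with β-catenin in the nucleus. That count is no more than the 13% of all tested genes called in this comparison would give.

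Target genes of the pathway did not share a direction. Of 11 tested, with Axin2 counted apart, none were called between genotypes at 6 weeks. On DR 2 were higher and 3 lower in Ercc1Δ/- than in WT mice, beside 13% of all tested genes called. Ccnd1 (1.16, adjusted p = 0.000450) and Myc (1.15, adjusted p = 0.00652), which drive the cell cycle, were higher in the mutant. Bambi (-0.95, adjusted p = 5.91e-05), Nkd1 (-0.54, adjusted p = 0.000829) and Fzd7, which is also on the receptor list, were lower. Nkd1 and Bambi act on signalling themselves, Nkd1 by binding Dishevelled.

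**Figure D5:**
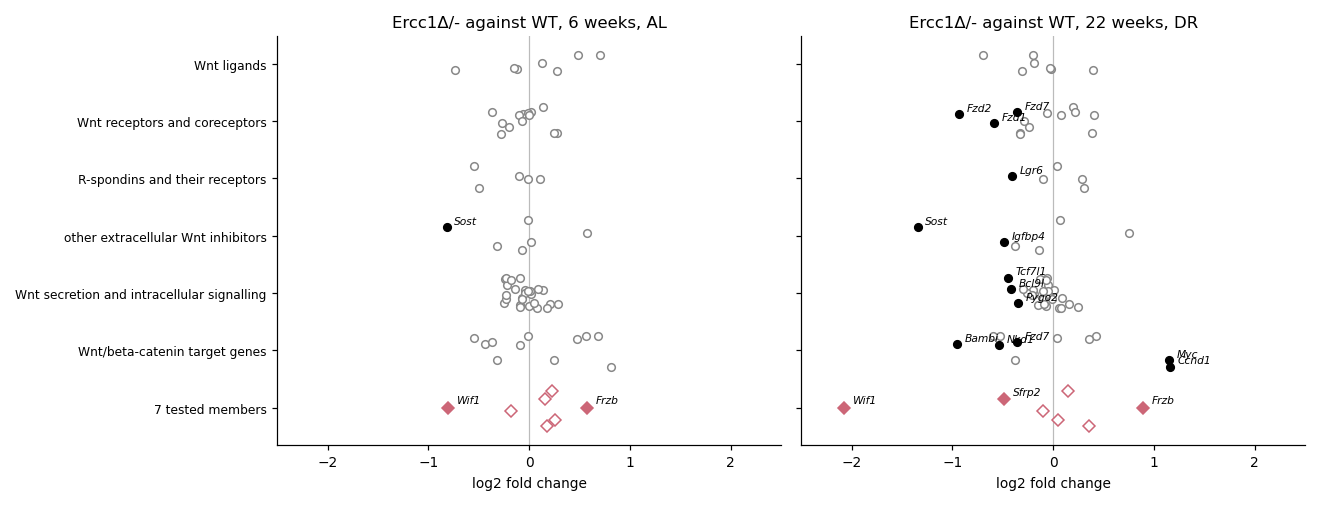
Log2 fold change (x axis) of Ercc1Δ/- against WT for the tested genes of 6 Wnt pathway lists and, in the bottom row, the 7 tested members (red diamonds), at 6 weeks on AL and at 22 weeks on DR; filled symbols passed the test and are named, and the height within a row has no meaning. Wif1 lies farthest to the left in the DR panel at -2.08, with Sost at -1.35.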

How the data were processed

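RNA of 29 aortic arches (1 mouse per library, directional kit, unique molecular identifiers) was sequenced by the authors, who aligned reads with STAR 2.7.10a, removed duplicates with UMI-tools 1.1.2 and counted them over the entire gene body with HTSeq 2.0.2. The deposited values are raw counts per Ensembl gene on the GRCm39 assembly. The strand setting of the counting is not given in the sources used here. The 5 summary lines held 12.6% to 18.7% of a library and were left out, as was mouse 003 (400410 counts).

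Of 56748 genes, 12353 exceeded 10 counts in over 10 mice of the 28 and were tested with edgeR 4.0.16 (R 4.3.3, limma 3.58.1), using TMM factors (0.935 to 1.07), quasi-likelihood F tests, a sex term and Benjamini-Hochberg adjustment over all of them. A gene was called at an adjusted p of 0.05 or less and a change of at least 1.2-fold, and in tests of a difference between effects, or of sex, at the adjusted p alone. The AL comparisons used the 18 AL mice and those at 22 weeks the 18 mice of that age. The counts limit precision through depth, 921167 to 9616382 per mouse (median 3256708). All 52 pairs of mice within groups differed beyond sampling noise (chi-square per degree of freedom 2.31 to 22.9). The scripts were tested on simulated data.

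Exact permutation tests (two-sided, scipy 1.17.1, Python 3.11.15) compared group means, and 100000 permutations within groups served the correlations. Promoters are from GENCODE on GRCm39. Alternatives were DESeq2 1.42.0, RLE factors, no filter, mouse 003 added, no sex term, one fit of 6 groups, thinning to the lowest total and each mouse left out; an earlier dispersion method of edgeR was added after seeing the data. The members, the 6 Wnt pathway lists and the marker lists were chosen with earlier results of these data known. Named genes are the members, the called genes of the pathway and marker lists, and the genes most correlated with each member over 28 mice (5 for Wif1, 3 for others).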

Additional observations from a re-analysis of the deposited data

Results flagged for a closer look

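The genotype difference of Wif1 was the 1 result that stood out, because its size differed between the 2 settings that had no part in choosing the gene. It was -1.28 on the log2 scale farther from WT on DR at 22 weeks than at 6 weeks on AL (95% interval -1.73 to -0.83, adjusted p = 0.0473 in edgeR's quasi-likelihood test over 12353 genes). In the WT groups Wif1 had 276 ± 75.1 normalized counts at 6 weeks and 265 ± 48.8 on DR, and in the Ercc1Δ/- groups 158 ± 15.7 and 61.7 ± 19.0 (SD, n = 5 each). Age and diet cannot be told apart in this comparison. The call was lost without any 1 of 14 of the 20 mice (adjusted p 0.0586 to 0.169), with RLE factors (0.0504), without the sex term (0.0783) and after thinning (0.134). No single mouse stood apart from its group in any of the 42 sets of member values checked, where chance would set apart about 1 in 20.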

How the results depend on the processing

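Of 2065 recomputed log2 fold changes of the members, 51 lost and 14 gained a call, and none changed the direction of a call. The other 2000 were counted as unchanged, although some uncalled values among them changed sign. Axin2 between genotypes on AL at 22 weeks did so in 14 of 26 settings. Values of that untested contrast were all counted as unchanged. Sfrp2 stayed beyond the thresholds there in 15 of 18 fits with 1 mouse left out. The calls of Wif1 and Frzb between genotypes on DR, and of Frzb for diet in Ercc1Δ/- mice, held under all alternatives run. Counts of called genes moved as follows; where not given the cause was not tested. With DESeq2 they were 378 for genotype at 6 weeks (210 as reported), 106 for age in WT mice (29), 191 for genotype by age (104), 344 for diet in Ercc1Δ/- mice (202), 42 for genotype by diet (12), 47 for the genotype difference between DR and 6 weeks (1) and 62 for sex (24). Without the filter, and so with more genes tested, they were 67 for age in WT mice, 299 for diet in WT mice (158), 39 for genotype by diet, 11 for the difference between DR and 6 weeks and 54 for sex. Thinning to equal depth, which discards counts, gave 130 for genotype at 6 weeks, 762 for genotype on AL at 22 weeks (1487), 17 for age in WT and 338 in Ercc1Δ/- mice (579), 68 for genotype by age, 52 for diet in WT mice, 1064 for genotype on DR (1605), 4 for genotype by diet and 0 for the difference between DR and 6 weeks. With mouse 003 added, diet gave 99 in WT and 101 in Ercc1Δ/- mice and genotype by diet 3. Without the sex term, diet in WT mice gave 55, genotype by diet 2 and the difference between DR and 6 weeks 0. One fit of all 6 groups gave 66, 5 and 13 for the same 3, and RLE factors gave 0 for the last.

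The number of members called was 1 with RLE factors or no filter and 0 with mouse 003 for genotype at 6 weeks (2 as reported). It was 1 with DESeq2 for age in WT mice (0), 2 with DESeq2, no filter, one fit or thinning for age in Ercc1Δ/- mice (1), and 2 with DESeq2 and 1 with no filter or one fit for genotype by age (0). It was 1 with no sex term and 0 in one fit for diet in WT mice (2), 1 with no filter for genotype by diet (0), and 0 with RLE factors, no sex term or thinning for the difference between DR and 6 weeks (1). Leaving out 1 mouse gave 102 (without WT 009) to 226 genes and 1 to 2 members for genotype at 6 weeks, 933 to 1692 genes on AL at 22 weeks (fewest without WT 018), and 1167 to 1639 genes and 3 members on DR. It gave 8 (without WT 025) to 57 genes (without Ercc1Δ/- 027) and 0 members for age in WT, 322 (without Ercc1Δ/- 004) to 748 genes and 1 to 2 members for age in Ercc1Δ/- mice, and 55 (without WT 018) to 134 genes and 0 to 1 members for genotype by age. For diet it gave 44 (without WT 018) to 204 genes and 1 to 2 members in WT, 78 (without Ercc1Δ/- 026) to 274 genes and 1 member in Ercc1Δ/- mice, and 2 (without Ercc1Δ/- 004) to 18 genes and 0 members for genotype by diet. For the difference between DR and 6 weeks it gave 0 to 43 genes (most without Ercc1Δ/- 022) and 0 to 1 members, and for sex 19 to 51 genes and 0 members. No pair of members was correlated within groups under any alternative run, and 4 of 16 exact tests had a p of 0.05 or less with TMM as with RLE factors. Depth limits Axin2 and Dkk2 most. No paired analysis was possible because each mouse has a number of its own and the groups share none.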

Other observations

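Without the filter on low counts, Dkk2 had a log2 fold change with age of -2.23 (standard error 0.56, adjusted p = 0.0153) in AL-fed Ercc1Δ/- mice, the 1 comparison of 11 in which it passed. It rested on 9 to 14 raw counts per mouse at 6 weeks and 0 to 6 at 22 weeks. Over the 28 mice the profile of Dkk3 was most like those of Nap1l3 (r = 0.73), Synpo (0.73), which encodes an actin-associated protein, and Wfikkn2 (0.68), and that of Axin2 most like Cenpv, Rhbdl3 and Hagh (0.69 each).

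Other Wnt genes changed with age in AL-fed Ercc1Δ/- mice, in a comparison that shares the AL-fed mice of 22 weeks. Of the 65 tested, Wnt11, a ligand, rose (log2 fold change 1.08, adjusted p = 0.0264) and 5 fell: the receptors Fzd4 (-0.39) and Lgr6 (-0.39), the corepressor Tle1 (-0.43) and the matricellular genes Ccn5 (-1.01, adjusted p = 6.27e-06) and Ccn4 (-1.23). Of all tested genes, 4.69% were called in this comparison (579 of 12353). In WT mice none of the 65 was called with age by edgeR, where 0.235% of all tested genes were (29 of 12353).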
